A study of Mus musculus with 8 samples.

Results

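BAF is a chromatin remodelling complex of mammals, and 10 genes for its subunits are described here across 8 RNA-seq libraries of mouse 46C embryonic stem cells. The genes were selected by symbol alone: Smarca2, Smarca4, Smarcc1, Smarcc2, Smarcd1, Smarcd3, Arid1a, Actl6a, Actl6b and Phf10. All 10 were found, of 21069 features in the day 5 files and 19011 in the day 0 table. The libraries come from 4 lines, 1 library per line and day: wild type (WT), a knockout labelled LincNDIME_KO (KO below), shCtrl, which has a control short hairpin, and shMef2c, whose hairpin targets Mef2c, the gene of a transcription factor. NDIME is a long intergenic noncoding RNA, as the KO label and the title have it. At day 0 the cells were stem cells in serum and the cytokine LIF on irradiated mouse embryonic fibroblasts. At day 5 they were aggregates in medium with knockout serum replacement, labelled as neural progenitor cells derived from ES cells. The labels give strain C57BL/6 for all 8. The 46C line is known for a GFP reporter at Sox1, so all groups share it. The sources used here do not say whether KO is 1 clone or how the hairpins were delivered.

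BAF complexes use the energy of ATP to slide or evict nucleosomes, and each subunit position can be filled by 1 of several related proteins. Stem cells are known for a form built on the ATPase Brg1 (Smarca4), BAF155 (Smarcc1), BAF60a (Smarcd1) and BAF250a (Arid1a), with little Brm (Smarca2) and BAF170 (Smarcc2). Neural progenitors keep BAF53a (Actl6a) and BAF45a (Phf10), and neurons leaving the cell cycle replace them with BAF53b (Actl6b) and the Dpf1 or Dpf3 proteins. The question put to these libraries is which of these exchanges is seen in the RNA by day 5, and whether the perturbed lines differ in them.

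The promoters of the gene pair at the BAF53 position and of Smarcd3 are shown because Actl6b and Smarcd3 went in opposite directions between the days in the control lines. Each is the RefSeq window from 250 bases before to 50 after the start of the gene in build GRCm38.p6, printed 5′ to 3′ on the gene's strand, with every CpG dinucleotide in capitals. Actl6a lies on the plus strand (chr3:32708296-32708595), Actl6b on the plus strand (chr5:137553296-137553595) and Smarcd3 on the minus strand (chr5:24601953-24602252). The files' own build is mm9, so no position is taken from them.
Actl6a: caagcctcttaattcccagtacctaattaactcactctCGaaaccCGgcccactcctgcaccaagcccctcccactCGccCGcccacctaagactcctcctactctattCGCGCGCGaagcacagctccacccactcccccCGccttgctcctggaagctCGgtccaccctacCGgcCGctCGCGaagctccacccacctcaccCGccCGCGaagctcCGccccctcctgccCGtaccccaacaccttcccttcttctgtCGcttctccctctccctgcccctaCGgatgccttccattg
Actl6b: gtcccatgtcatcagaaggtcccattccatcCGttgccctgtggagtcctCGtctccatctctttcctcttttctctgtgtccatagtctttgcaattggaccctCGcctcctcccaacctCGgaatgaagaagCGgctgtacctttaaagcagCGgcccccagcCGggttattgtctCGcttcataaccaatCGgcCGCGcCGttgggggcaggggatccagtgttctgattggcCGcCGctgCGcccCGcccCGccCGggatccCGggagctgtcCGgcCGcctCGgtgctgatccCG
Smarcd3: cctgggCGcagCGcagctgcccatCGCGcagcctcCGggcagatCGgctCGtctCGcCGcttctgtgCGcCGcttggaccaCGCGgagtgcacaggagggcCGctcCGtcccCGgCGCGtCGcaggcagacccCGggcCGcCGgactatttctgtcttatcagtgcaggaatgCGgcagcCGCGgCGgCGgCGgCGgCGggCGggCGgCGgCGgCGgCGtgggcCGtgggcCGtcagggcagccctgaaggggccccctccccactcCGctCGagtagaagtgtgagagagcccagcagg
The Actl6a window holds 21 CpG, that of Actl6b 23 and that of Smarcd3 40, against a median of 7 over 32544 RefSeq promoters of this length. The neural gene Actl6b thus has as CpG-rich a start as Actl6a, which is active in every library. Over the members the count ran from 21 to 62, the highest in Phf10, with 2 windows for Arid1a. Matches were sought on both strands for the CCAAT box, for the GC box GGGCGG, which itself holds a CpG, and for the TATA box TATAAA. A form of the motif that MEF2 proteins bind, CTANNNNTAG, reads the same on both strands and was counted once. CCAAT occurred 3 times in the Actl6b window and in no other member's, while 37.4% of all promoters hold it. GGGCGG was found in every member's window, and in 35.9% of all promoters. The TATA box (13.6% of all) and the MEF2 form (3.70% of all) were not found in any member's window.

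Reads assigned to genes came to between 25996204 and 26834802 per library at day 5 and between 20312032 and 20883674 at day 0. Mef2c itself was scarce. It stood at 0.45 FPKM in WT, 0.10 in KO, 0.50 in shCtrl and 0.12 in shMef2c at day 5. At day 0 it stood at 0.23 RPKM in WT, 0.24 in KO, 0.16 in shCtrl and 0.37 in the library labelled shMef2c. That last value goes against the label, and no counting interval is given here for levels this low. No feature carries the name NDIME, so its deletion was not checked here. The pluripotency and neural progenitor marker sums did not overlap between the controls and the perturbed lines at day 5. The summed level of 10 pluripotency markers at day 5 was 798 FPKM in WT, 544 in shCtrl, 2091 in KO and 2589 in shMef2c. That of 10 neural progenitor markers was 371 in WT, 438 in shCtrl, 110 in KO and 46.4 in shMef2c. For 11 neuron markers it was 291 in WT, 425 in shCtrl, 261 in KO and 107 in shMef2c. These went both ways in KO against WT, with 4 of the 10 that passed the filter above 0, and Tubb3 at 148 FPKM in KO and 109 in WT. None of these 3 lists had a marker at 0 at day 5, while Dcx was at 0 in shCtrl and in the library labelled shMef2c at day 0. The highest markers by mean were Dppa5a and Pou5f1, Fabp7 and Msi1, and Stmn2 and Tubb3. The 7 markers of visceral endoderm, led by Apoe and Rbp4, summed to 109 FPKM in WT, 366 in KO, 211 in shCtrl and 298 in shMef2c at day 5, and to between 124 and 231 RPKM at day 0. Most of these sums is Apoe, at 283 FPKM in shMef2c and 254 in KO at day 5. By gene, 7 of 7 were called higher in KO against WT (4.05% of all features). In shMef2c against shCtrl 3 of the 4 that passed the filter were called lower (4.78% of all features) and 0 higher. The controls differed as well, with 3 of 5 called higher in shCtrl against WT (0.724% of all features). Rbp4 stood at 3.16 FPKM in WT, 22.9 in KO, 30.2 in shCtrl and 4.55 in shMef2c at day 5. The 8 fibroblast markers were led by Col1a1 and Col1a2. At day 0 they summed to 202 RPKM in WT, 188 in KO, 208 in shCtrl and 338 in the library labelled shMef2c. The sum at day 5 was between 15.0 and 20.0 FPKM. The part of feeder RNA and of these other cell types in the results, the Mef2c values included, was not tested. In such bulk samples, fewer cells of a type and less RNA per cell cannot be told apart.

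Since each group is a single library, nothing here could be tested against replicates, and every statement describes these libraries. A ratio is log2((value + 1)/(value + 1)) on the deposited values, and 2-fold or more counts as called where the mean of the pair is 1 or more. Of the 10 members, 9 passed that filter in each comparison and Actl6b did not in any. At day 5, 0 members were called in KO against WT, where 7.31% of all features were, and 0 in shMef2c against shCtrl, where 9.26% were. Their median log2 ratios were -0.11 and -0.08, beside 0.00 and -0.05 over all features. Between shCtrl and WT 0 members were called, with 0.996% of all features, and that comparison shares 1 library with each of the other two. At day 0, 1 member was called in KO against WT (2.93% of all features). None was called for the library labelled shMef2c against shCtrl (0.231%) or for shCtrl against WT (1.27%). More members were called between the days. In WT 2 were called at day 5 against day 0 (30.0% of all features), in KO 2 (19.9%), in shCtrl 3 (30.6%) and in shMef2c 1 (18.9%). With 9 members, counts of 1 to 3 are close to what these background shares give, so nothing is read from the counts for the set. Actl6a was the highest and Actl6b the lowest of the 10 by per-length level in every library, and Smarcc2 was 7th in every library. Smarcd3 stood above Smarca2 in all 4 lines at day 0 and below it in all 4 at day 5. Comparisons of the days use tables that were normalized separately, and their ratios are centred on the median of all features. Beside them the ratio of read shares is given, which uses no gene length, with an exact 95% interval that covers counting error only.

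**Figure D1:**
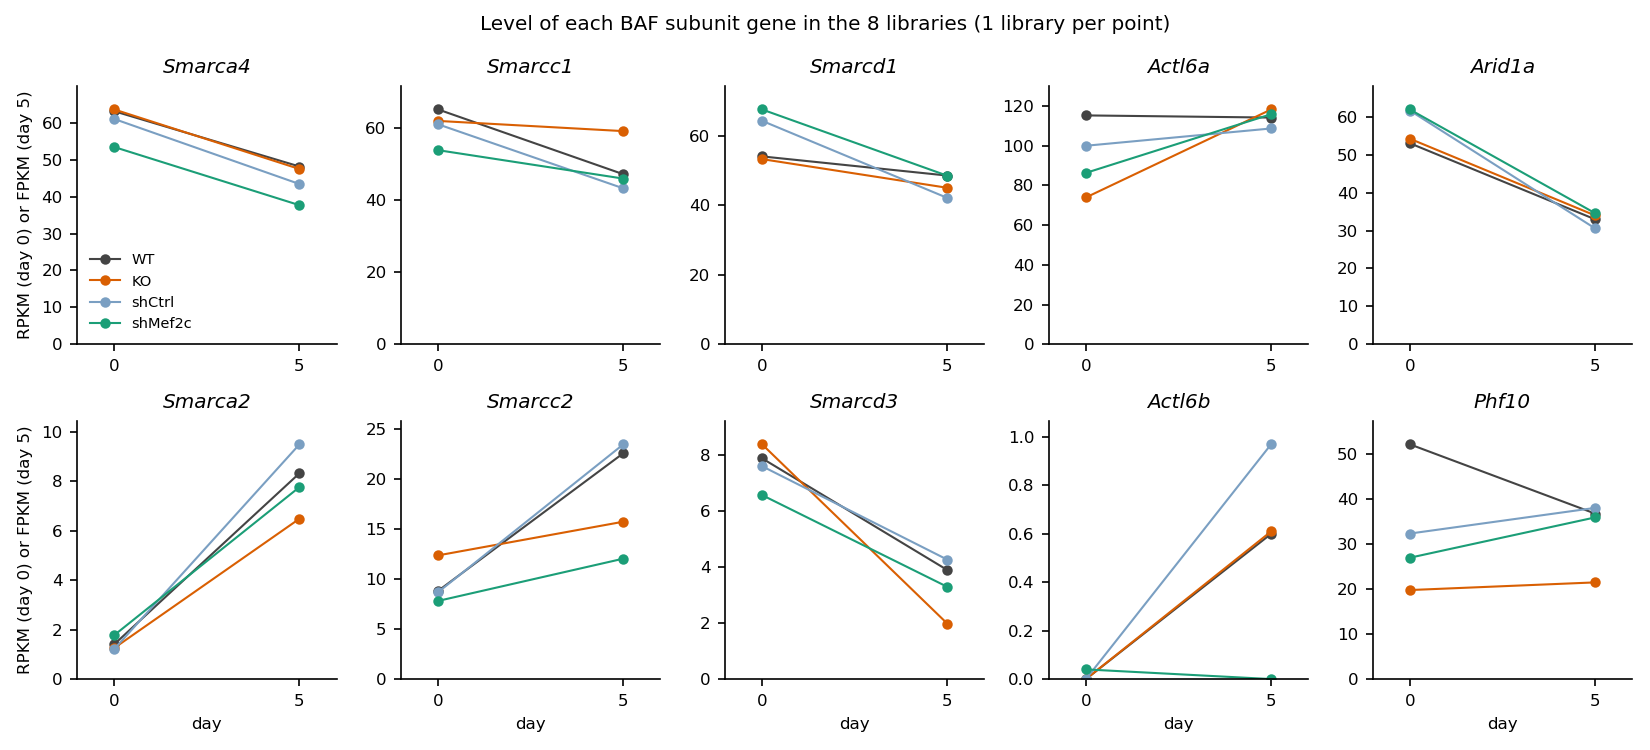
Deposited level of each of the 10 subunit genes (RPKM at day 0, FPKM at day 5) in the 4 lines, with 1 library per point and a line joining the days of each line. Smarca2 and Smarcc2 are higher at day 5 in every line, Smarcd3 is lower in every line, and Actl6b reaches at most 0.97 FPKM.

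At the ATPase position, Smarca4 (Brg1) was the main gene in every library and Smarca2 (Brm) was the scarce one, with a larger part at day 5. Smarca4 stood at 63.1 RPKM in WT, 63.6 in KO, 61.0 in shCtrl and 53.4 in the library labelled shMef2c at day 0. At day 5 it stood at 48.2 FPKM in WT, 47.5 in KO, 43.4 in shCtrl and 37.7 in shMef2c. On this scale the days do not overlap, and shMef2c was lowest on both. The assigned length was 6370 bases at day 5 while the day 0 values imply 5451 to 5481, and by reads the days do overlap. The ratio of read shares of day 5 over day 0 was 0.882 in WT, 0.858 in KO, 0.819 in shCtrl and 0.816 in shMef2c. Smarca2 stood at 1.41 RPKM in WT, 1.26 in KO, 1.22 in shCtrl and 1.78 in the library labelled shMef2c at day 0. At day 5 it stood at 8.33 FPKM in WT, 6.49 in KO, 9.50 in shCtrl and 7.77 in shMef2c. Again the days do not overlap, and the perturbed lines lie below both controls at day 5. Smarca2 was called higher at day 5 in all 4 lines, with log2 ratios of 1.93 in WT, 1.72 in KO, 2.17 in shCtrl and 1.69 in shMef2c. Its read shares gave smaller ratios, 3.27 (2.66 to 4.05) in WT, 3.44 (2.79 to 4.27) in KO, 4.32 (3.46 to 5.44) in shCtrl and 3.31 (2.73 to 4.04) in shMef2c.

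The length the authors assigned to Smarca2 differed between libraries, which moves its per-length value. That length was 2220 bases in WT, 2952 in KO, 2129 in shCtrl and 2726 in shMef2c at day 5, and the day 0 values imply 3492 to 4292 bases. The day 5 files list several transcripts for it. The gene-level values do not show which of them the reads came from, so they are not read as levels of a full-length Brm mRNA. Per 1000000 assigned reads it had 17.9 in WT, 18.6 in KO, 19.5 in shCtrl and 20.6 in shMef2c at day 5. The lower FPKM of the perturbed lines was thus not seen in reads, where the ratio of read shares was 1.04 (0.919 to 1.19) for KO over WT and 1.06 (0.934 to 1.19) for shMef2c over shCtrl. As a share of the per-length level of the pair within a library, a measure free of library scaling, Smarca2 made up 1.94% to 3.22% at day 0. At day 5 it made up 14.7% in WT, 12.0% in KO, 18.0% in shCtrl and 17.1% in shMef2c. As a share of the pair's reads, with no length, it was 5.56% in WT, 5.87% in KO, 6.66% in shCtrl and 7.99% in shMef2c, after 1.34% to 2.09% at day 0. The share was higher at day 5 on both scales, while the order of each perturbed line and its control turned.

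At the scaffold position the perturbed lines differed from the controls at day 5. Smarcc2 (BAF170, a subunit known from neural progenitors of the cortex) was higher at day 5 than at day 0 in both controls by over 2-fold, and by less in both perturbed lines. At day 0 it stood at 8.84 RPKM in WT, 12.4 in KO, 8.71 in shCtrl and 7.83 in the library labelled shMef2c. At day 5 it stood at 22.6 FPKM in WT, 15.8 in KO, 23.5 in shCtrl and 12.1 in shMef2c. The controls lie close together on both days, KO is the highest at day 0, and both perturbed lines lie below both controls at day 5. The ratio of read shares of day 5 over day 0 was 2.46 (2.28 to 2.65) in WT and 2.58 (2.40 to 2.79) in shCtrl. It was 1.23 (1.15 to 1.32) in KO and 1.48 (1.36 to 1.62) in shMef2c. At day 5 KO stood at 0.707 times WT by read share (0.668 to 0.749), a log2 ratio of -0.49. In shMef2c the gene stood at 0.515 times shCtrl (0.484 to 0.548), a log2 ratio of -0.91 and just short of the 2-fold limit. The controls differed by a ratio of 1.05 (0.994 to 1.10). With the other control library the log2 ratio was -0.55 for KO and -0.85 for shMef2c, so the direction holds against either control.

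Smarcc1 (BAF155), the partner that stem cells use, was the more abundant of the pair throughout. It stood at 65.0 RPKM in WT, 61.8 in KO, 60.9 in shCtrl and 53.7 in the library labelled shMef2c at day 0. At day 5 the values were 47.1 FPKM in WT, 59.0 in KO, 43.2 in shCtrl and 45.9 in shMef2c, with KO above the other three. KO over WT was 1.25 by read share (1.21 to 1.29), and shCtrl over WT was 0.918, with an upper bound under 1. The share of Smarcc2 in the pair's per-length level was 12.0% in WT, 16.7% in KO, 12.5% in shCtrl and 12.7% in the library labelled shMef2c at day 0. At day 5 it was 32.5% in WT (31.5% to 33.4%) and 35.3% in shCtrl (34.3% to 36.3%), against 21.1% in KO (20.3% to 21.9%) and 20.8% in shMef2c (19.9% to 21.8%). The 2 perturbed lines thus overlap in this share and lie apart from both controls. The lower Smarcc2 share went with the higher pluripotency and lower neural progenitor marker sums given above, and their part in it was not tested.

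**Figure D2:**
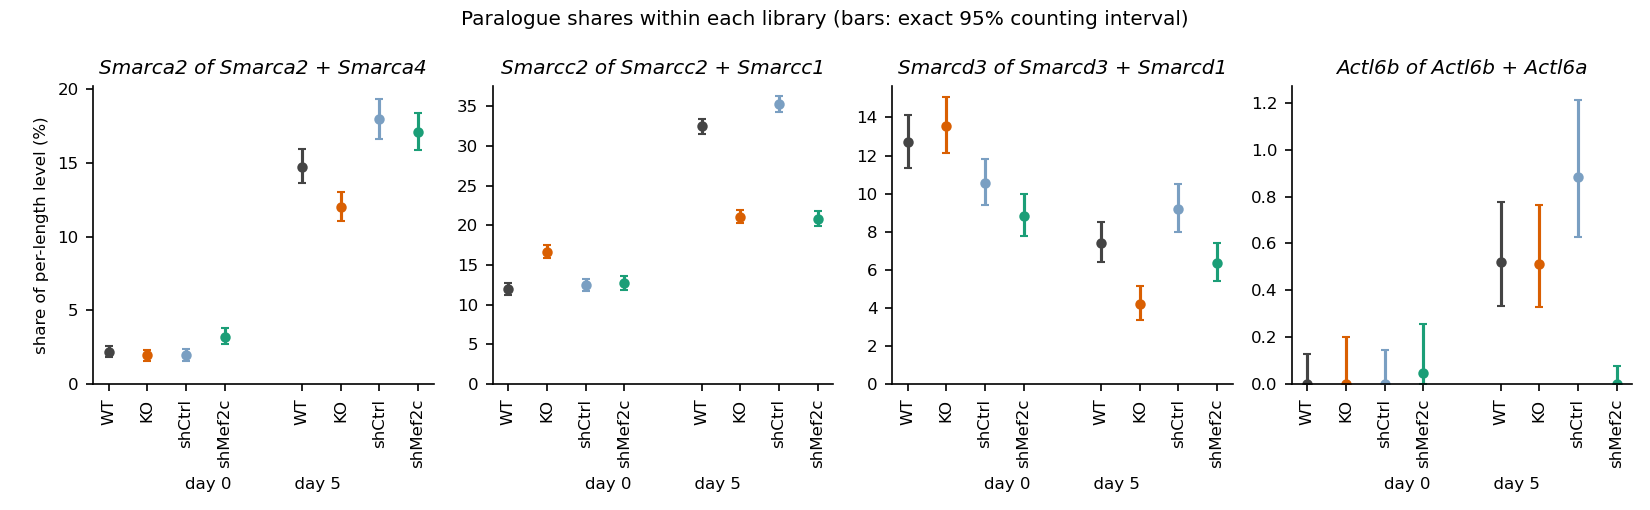
Level of the first gene as a percentage of the summed per-length level of a pair of related subunits, for each of the 8 libraries, with exact 95% counting intervals as bars. Smarcc2 reaches 32.5% and 35.3% of its pair in the day 5 controls and 21.1% and 20.8% in KO and shMef2c, while Smarcd3 is lower at day 5 than at day 0 within every line.

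At the BAF60 position the pair of Smarcd3 and Smarcd1 went the other way from a gain of the second form. Smarcd2, a further gene of this position, is not in the shares of this pair. It stood above Smarcd3 in every library, at 23.5 to 42.2 RPKM at day 0 and 16.9 to 23.1 FPKM at day 5. Smarcd3 (BAF60c), best known from heart and muscle and also used in neural complexes, was lower at day 5 than at day 0 in every line. Smarcd3 stood at 7.87 RPKM in WT, 8.37 in KO, 7.59 in shCtrl and 6.56 in the library labelled shMef2c at day 0. By day 5 the level was 3.89 FPKM in WT, 1.98 in KO, 4.26 in shCtrl and 3.29 in shMef2c. The days do not overlap, and KO is the lowest at day 5. By read share, day 5 over day 0 was 0.509 (0.418 to 0.619) in WT, 0.577 (0.475 to 0.700) in shCtrl and 0.509 (0.410 to 0.630) in shMef2c. In KO it was 0.241 (0.187 to 0.307), below the intervals of the other lines, and only there did the log2 ratio (-1.67) pass 2-fold with the pseudocount of 1. At day 5, KO over WT was 0.506 by read share (0.387 to 0.659), from 87 reads against 174, or a log2 ratio of -0.71. The value for shMef2c over shCtrl was 0.771 (0.616 to 0.963), and shCtrl over WT had an interval of 0.887 to 1.36.

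Smarcd1 (BAF60a), which links the complex to transcription factors, stayed the main form. It ranged from 53.3 to 67.6 RPKM at day 0 and from 42.2 to 48.6 FPKM at day 5. The controls themselves differed at day 0, by 1.19 in shCtrl over WT by read share (1.14 to 1.24). The share of Smarcd3 in the pair was 12.7% in WT, 13.6% in KO, 10.5% in shCtrl (9.38% to 11.8%) and 8.84% in the library labelled shMef2c at day 0. At day 5 it was 7.41% in WT, 4.21% in KO, 9.18% in shCtrl (7.97% to 10.5%) and 6.35% in shMef2c. The share was lower at day 5 within every line, though in shCtrl the intervals of the days overlap. Fibroblast markers were lower at day 5 too, and their part in this result was not tested. The 8 muscle and heart markers, cells in which Smarcd3 is known, summed to between 45.0 and 82.6 RPKM at day 0. At day 5 they summed to 23.8 FPKM in WT, 8.69 in KO, 15.1 in shCtrl and 24.2 in shMef2c. KO was lowest, as for Smarcd3, but shMef2c was above shCtrl while its Smarcd3 was lower. By gene, 1 of the 4 that passed the filter was above 0 in KO against WT, and 3 of 4 in shMef2c against shCtrl. Myog was at 0 in WT at day 5 and Nkx2-5 in KO at day 0. The highest of the list by mean were Acta2 and Myl7. Acta2 alone stood at 16.0 FPKM in WT, 3.35 in KO, 5.60 in shCtrl and 12.3 in shMef2c at day 5. The part of such cells was not tested either.

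At the BAF53 position the stem cell and progenitor form dominated everywhere. Actl6a (BAF53a), an actin-related protein of dividing cells, was the most abundant member in every library. It stood at 115 RPKM in WT, 74.0 in KO, 100.03 in shCtrl and 86.4 in the library labelled shMef2c at day 0. At day 5 the values lay closer, at 114 FPKM in WT, 118 in KO, 109 in shCtrl and 116 in shMef2c. KO was the lowest at day 0, at 0.642 times WT by read share (0.613 to 0.672), and at 1.03 times WT at day 5 (0.997 to 1.07). The day 0 controls themselves differed by 0.868 (0.832 to 0.905).

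Actl6b (BAF53b), the form of neurons, was at the edge of detection. At day 0 it had 0 reads in WT, KO and shCtrl and 1 read in the library labelled shMef2c. A count of 0 allows up to 3 reads, or 0.144 per 1000000 reads in WT. By day 5, WT had 24 reads (0.60 FPKM), KO had 24 (0.61 FPKM) and shCtrl had 38 (0.97 FPKM), and the gene was not listed in shMef2c. Files of that day list values from 0.01 FPKM up, and in the other 3 libraries 1 read of this gene was worth 0.0236 to 0.0244 FPKM. The 3 libraries with reads do not overlap with shMef2c. Taking the limit of 3 reads for shMef2c, Actl6b was at least 13.0-fold lower there than in shCtrl by read share, and the exact interval of the ratio runs from 0 to 0.0996. The same limit at day 0 makes it at least 6.23-fold higher at day 5 in WT, 6.13-fold in KO and 10.1-fold in shCtrl. These bounds leave out the counting error of the 24 to 38 reads at day 5, and with it the exact intervals start at 4.68, 4.61 and 7.84. The ratio of shCtrl to WT at day 5 was 1.63 (0.955 to 2.85), so the interval holds 1. KO over WT was 1.01 (0.551 to 1.86), an interval that is wide at 24 reads each. The authors' deposited table lists Actl6b for shMef2c over shCtrl with a log2 ratio of -6.60, whose size depends on the value put in place of 0. It is the only one of the 10 members in that table, and the authors' deposited table of KO and WT lists 0 of them.

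As a share of the pair with Actl6a, Actl6b made up 0.523% in WT (0.335% to 0.776%), 0.513% in KO (0.329% to 0.762%) and 0.884% in shCtrl (0.627% to 1.21%) at day 5. In shMef2c a count of 0 allows a share of up to 0.0640%. The upper bound in shCtrl, 1.21%, was the highest of the 8 libraries. At day 5 Actl6b was lowest in shMef2c and highest in shCtrl, as was the neuron marker sum, at 107 and 425 FPKM. This did not extend to day 0, where that sum was 166 to 239 RPKM and Actl6b had 0 or 1 reads. Stmn2, the highest of that list, stood at 102 to 138 RPKM at day 0. The part of the number of neurons in this result was not tested.

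Arid1a (BAF250a), the subunit that defines canonical BAF and binds DNA, was lower at day 5 in every line. It stood at 53.05 RPKM in WT, 54.2 in KO, 61.7 in shCtrl and 61.95 in the library labelled shMef2c at day 0. On day 5 the values were 33.0 FPKM in WT, 34.0 in KO, 30.6 in shCtrl and 34.6 in shMef2c. The days do not overlap, and the 4 lines lie close together at day 5. In shCtrl its log2 ratio of -1.06 was past 2-fold, but it was -0.99 with no centring and -0.89 on reads with TMM factors, which ended the call, and the ratio of read shares was 0.570 (0.552 to 0.588). In the other lines the read share ratio was 0.714 in WT, 0.721 in KO and 0.639 in shMef2c. Its paralogue Arid1b stood at 4.98 FPKM in WT, 3.06 in KO, 5.54 in shCtrl and 4.99 in shMef2c at day 5. KO was lowest, with Arid1b at 8.26% of the pair's per-length level against 12.6% to 15.3% in the other 3.

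Phf10 (BAF45a), a zinc finger subunit of the PBAF form that keeps progenitors dividing, gave the only member called between lines. It stood at 52.2 RPKM in WT, 19.8 in KO, 32.3 in shCtrl and 26.96 in the library labelled shMef2c at day 0. The day 5 values were 36.8 FPKM in WT, 21.5 in KO, 38.0 in shCtrl and 35.9 in shMef2c. KO was lowest on both days, and the 2 controls were far apart at day 0 only. KO over WT was -1.36 on the log2 scale at day 0 and -0.75 at day 5, with read share ratios of 0.388 (0.355 to 0.423) and 0.583 (0.537 to 0.634). Against shCtrl the day 0 log2 ratio was -0.68, which ended the call, and shCtrl over WT was itself -0.67. At day 5 the ratio against shCtrl was -0.80. Reads for Phf10 were not whole numbers in the day 5 files (1566.14 in WT), as when reads are divided among features.

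Phf10 lies on chromosome 17, and that chromosome was lower as a whole in KO. Its 601 features had a median of -0.30 (log2, KO over WT) at day 5, with 79.5% below 0, beside 0.02 and 48.0% on the other chromosomes. At day 0 the median over 610 features was -0.20, with 73.3% below 0, beside 0.04 and 45.0% on the other chromosomes. Ordered by median from the lowest, it was rank 1 of 20 chromosomes at day 5 and rank 2 at day 0. For shCtrl over WT the chromosome's median was 0.00 at day 5 and 0.03 at day 0. Arid1b lies there too, at -0.56 in the same day 5 comparison. Gltscr1l, a further BAF gene of chromosome 17, had a ratio of 0.41 there. The part of the chromosome in the Phf10 and Arid1b values was not tested.

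**Figure D3:**
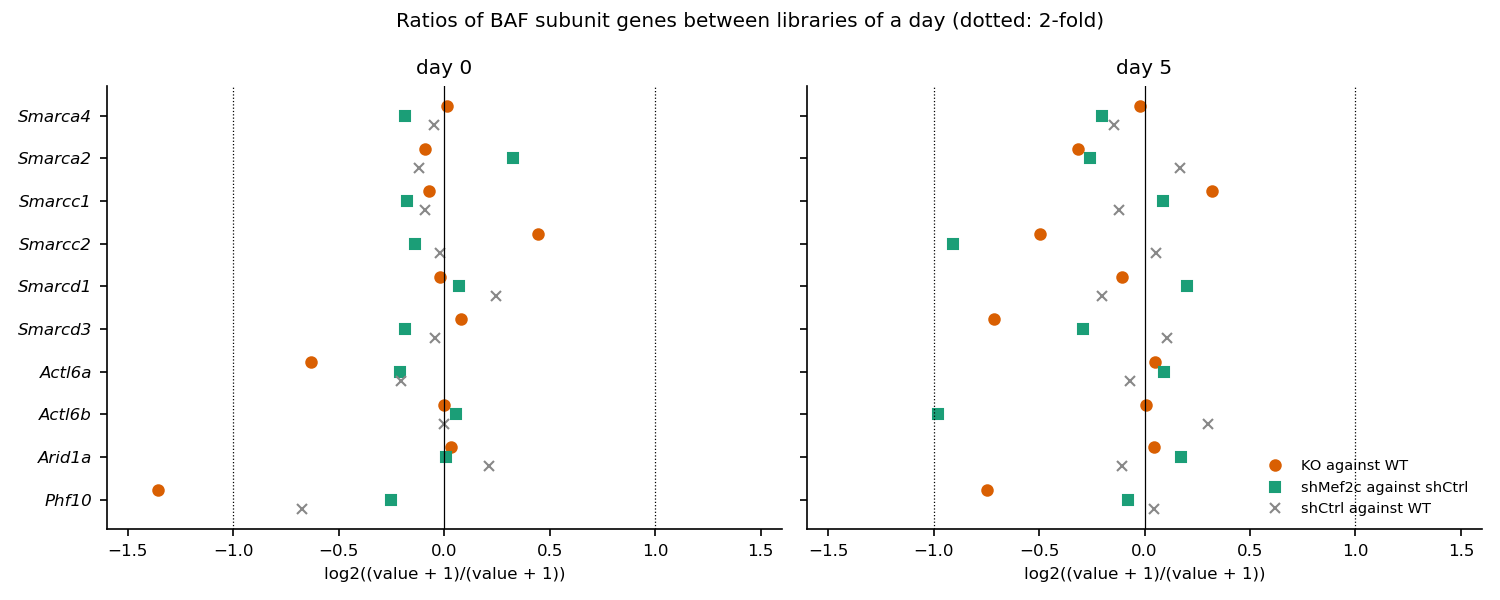
Log2 ratio of each subunit gene, computed as log2((value + 1)/(value + 1)), for KO against WT, shMef2c against shCtrl and shCtrl against WT, with day 0 on the left, day 5 on the right and dotted lines at 2-fold. At day 5 Smarcc2 is at -0.49 and -0.91 in the perturbed lines and 0.05 between the controls, and at day 0 Phf10 is past 2-fold in KO at -1.36.

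**Figure D4:**
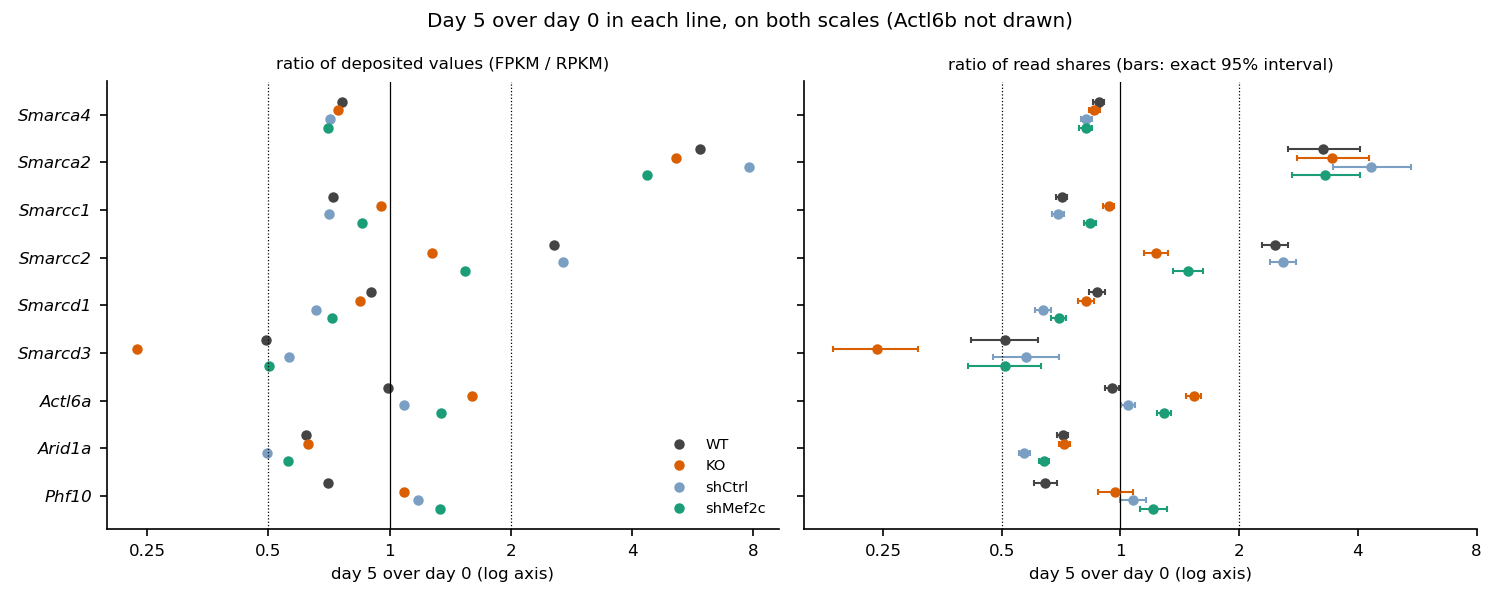
Ratio of day 5 to day 0 in each line on a log axis, from the deposited values on the left and from read shares with exact 95% counting intervals on the right, with dotted lines at 2-fold. Smarca2 is at 4.37 to 7.79 on the left but 3.27 to 4.32 on the right, and Smarcc2 is past 2 in WT and shCtrl only.

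A further 20 genes for subunits of BAF, its PBAF form and its noncanonical form (ncBAF) were fixed as a list, and 18 passed the filter at day 5. In KO against WT 0 of 18 were called (7.31% of all features), and in shMef2c against shCtrl 0 of 18 (9.26%). With 18 genes these counts are not far from what the shares give, so nothing is read from them. Their medians were -0.05 and -0.11. Closest to the limit in shMef2c was Ss18l1 (CREST), which replaces Ss18 in neuronal complexes. It stood at 2.95 FPKM in WT, 2.71 in KO, 3.35 in shCtrl and 1.43 in shMef2c at day 5, and at 1.70 to 2.26 RPKM at day 0. The ratio of shMef2c to shCtrl was -0.84 on the log2 scale with the pseudocount, and the authors' deposited table gives -1.23. Ss18l1 made up 6.33% of its pair with Ss18 in WT, 4.98% in KO, 7.64% in shCtrl and 2.91% in shMef2c at day 5, and 3.10% to 3.94% at day 0. Its share at day 5 was above the day 0 values in WT, KO and shCtrl. In shMef2c the day 5 share lay below every day 0 share. Its interval (2.49% to 3.39%) overlapped that of the day 0 library labelled shMef2c (3.02% to 4.14%). It did not overlap that of WT at day 0 (3.41% to 4.53%). Its share of reads, 4.23%, lay within the day 0 range of 4.17% to 5.23%.

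Of the Dpf genes, whose proteins also take the BAF45 position, Dpf1 and Dpf3 stayed below Phf10 in every library. Dpf2 (BAF45d), the widely expressed form, stood at 30.7 to 31.7 RPKM at day 0 and 26.1 to 32.2 FPKM at day 5, and was above Phf10 in KO on both days and in the library labelled shMef2c at day 0. Dpf1 (BAF45b) was lower at day 5 than at day 0, at 4.63 FPKM in WT, 2.72 in KO, 3.99 in shCtrl and 3.92 in shMef2c, after 6.07 to 8.44 RPKM. Dpf3 (BAF45c) stayed between 0.26 and 1.12 on either scale, from 8 to 53 reads. As a share of the pair with Phf10, Dpf3 was 0.648% in WT (0.363% to 1.07%) and 0.798% in shCtrl (0.345% to 1.56%) at day 0, and 1.37% (0.930% to 1.94%) and 2.19% (1.64% to 2.85%) at day 5. In shCtrl the intervals of the days do not overlap, and in WT they do. KO had the highest share on both days, 2.90% and 4.96%, beside its low Phf10. Dpf1 in its pair with Phf10 was 11.4% in WT at day 0 and 11.2% at day 5, and 20.6% and then 9.50% in shCtrl. For shMef2c over shCtrl, the authors' deposited table gives Dpf3 a log2 ratio of -1.12.

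Between the days, 4 of 17 further subunits that passed the filter were called in WT, 1 in KO, 4 in shCtrl and 2 in shMef2c. Beside the shares of all features given above (30.0%, 19.9%, 30.6% and 18.9%) these counts do not stand out, and the calls are given as values of single genes. Gltscr1l, a gene of ncBAF, was called lower in all 4 lines, at 15.7 to 19.2 RPKM and then 2.34 to 4.44 FPKM. Brd9, the bromodomain subunit of ncBAF, went the other way. It was called higher in WT and shCtrl, at 21.7 and 21.3 FPKM after 10.1 and 9.47 RPKM, and stood at 18.8 in KO and 16.5 in shMef2c. Bcl7a, a small accessory subunit, had a similar split. Its day 5 level was 15.8 FPKM in WT, 15.6 in shCtrl, 9.73 in KO and 9.57 in shMef2c, after 4.53 to 5.98 RPKM at day 0. Smarce1 (BAF57), a core subunit, stood at 80.1 FPKM in WT, 70.0 in KO, 91.5 in shCtrl and 54.2 in shMef2c, after 54.4 RPKM in WT and 32.1 to 37.4 in the other lines. It was called in shCtrl only, and at day 5 both perturbed lines were below both controls. Smarcd2 (BAF60b) was called lower in WT only, where its day 0 value of 42.2 RPKM was above the 23.5 to 26.3 of the other lines. Bcl7c was called higher in shMef2c only, with a log2 ratio of 1.16, though its read share ratio was 1.53 (1.39 to 1.69). Bcl7b was the only further subunit called between lines of a day, at 5.11 RPKM in KO against 12.9 in WT at day 0. "Only" in these sentences refers to the 2-fold limit, and the differences between lines were not tested.

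REST is the repressor that keeps neuronal genes silent outside neurons and is known to act on the microRNAs that lower BAF53a. Rest stood at 23.9 RPKM in WT, 17.5 in KO, 20.7 in shCtrl and 24.9 in the library labelled shMef2c at day 0. Day 5 gave 7.01 FPKM in WT, 13.3 in KO, 6.69 in shCtrl and 13.0 in shMef2c. The 2 perturbed lines were nearly equal at day 5 and above both controls, by log2 ratios of 0.83 and 0.86. Among the 5 genes of the list of REST and its corepressors, 0 were called between lines of a day, and 2 were called lower at day 5 in WT, 0 in KO, 3 in shCtrl and 1 in shMef2c. Of all features, 14.7% were called lower in WT, 9.79% in KO, 15.3% in shCtrl and 9.50% in shMef2c, so calls were fewer in the perturbed lines in general. Both perturbed lines had more Rest and less Smarcc2 than both controls at day 5, and a link between these genes was not tested. Their pluripotency marker sums were higher as well.

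Of 17 ATPase genes of other remodellers, 16 passed the filter at day 5. In KO against WT 1 was called (7.31% of all features), and in shMef2c against shCtrl 0 (9.26%), so nothing is read from the counts. The gene called was Chd3, a subunit of the NuRD complex, at 37.6 FPKM in WT, 10.6 in KO, 29.8 in shCtrl and 17.3 in shMef2c. The KO value was also the lowest at day 0, at 3.21 RPKM against 6.57 to 11.35. The authors' deposited table gives Chd3 -1.83 for KO over WT at day 5 on the log2 scale. For Chd5, which is under 1 FPKM in every day 5 library, it gives 1.31 for shMef2c over shCtrl.

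**Figure D5:**
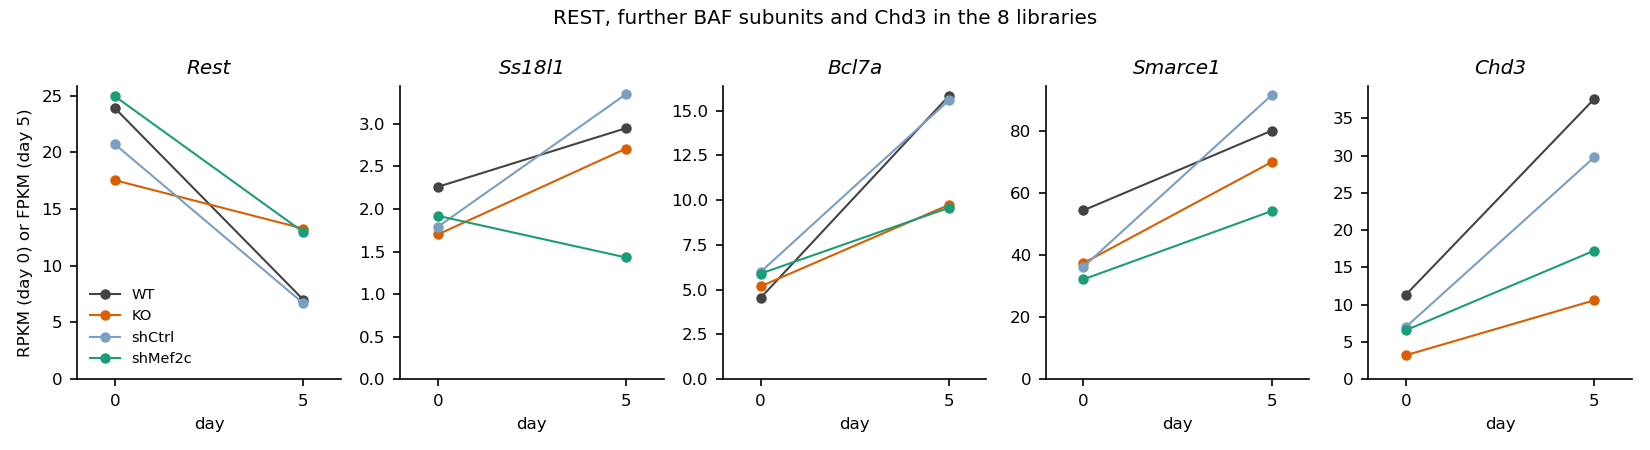
Deposited level (RPKM at day 0, FPKM at day 5) of Rest, 3 further BAF subunit genes and Chd3 in the 4 lines, with 1 library per point. At day 5 Rest is higher in KO and shMef2c, at 13.3 and 13.0 FPKM, than in the controls, while Bcl7a, Smarce1 and Chd3 are lower there than in both controls.

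The genes whose level over the 8 libraries was most like that of Actl6b were ranked by Pearson correlation on the log2(value + 1) scale. Among 11790 genes the first 5 were Dcx (0.999), Myt1 (0.997), Celf3 (0.995), Nefm (0.993) and Apc2 (0.993). Dcx, a microtubule protein of young neurons, stood at 3.63 FPKM in WT, 3.47 in KO, 7.09 in shCtrl and 0.15 in shMef2c at day 5, and at 0.02 RPKM or less at day 0. For Smarcd3 the first 5 were Creld1 (0.989), Irak1 (0.983), Fut10 (0.974), Pfkl (0.968) and Prelid2 (0.964). Creld1 stood at 5.98 FPKM in WT, 3.23 in KO, 7.50 in shCtrl and 5.23 in shMef2c, after 10.7 to 14.0 RPKM at day 0. With 8 points from 2 tables, these values describe the libraries only, and the points share the step between the days.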

How the data were processed

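Polyadenylated RNA of 8 libraries was sequenced, 1 per line and day. For each day 5 library the authors deposited expected counts and FPKM values per gene, per the file headers. For day 0 they deposited estimated counts and RPKM values in 1 table, per the file headers. Their deposited comparison tables for day 5 hold log2 ratios and adjusted p-values by a method called PossionDis, per the labels. RSEM, Bowtie, Bowtie2, HISAT, HISAT2 and mm9 appear in the submitters' processing notes, with no role or order. The sources used here do not say whether strand was used. Day 5 is given by the series' design text.

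Members were matched by symbol and followed between tables by gene ID, and features not listed at day 5 were taken as 0. Ratios used a pseudocount of 1, with a pair's mean at 1 or more, so ratios of scarce genes are understated. Ratios between days were centred over the 17363 features in both tables. Intervals are exact (Clopper-Pearson) at 95% and cover counting error only, since PCR reads without molecular identifiers are not independent molecules. A limit of 3 reads stood for a count of 0. Alternatives were a pseudocount of 0.1, no filter, a mean of 5, a limit of 1.5-fold, TPM, rounded counts scaled by DESeq2 1.42.0 size factors or TMM (edgeR 4.0.16), centring and the other control. The members and lists were chosen with earlier results of these data known. Named genes are all members, partners of pairs, further subunits past 2-fold in any comparison, remodellers past it at day 5 between lines, Rest, the 2 highest markers of each list, and the 5 genes most like Actl6b and Smarcd3. Smarca2, Phf10 and chromosome 17 details, Ss18l1 and Dpf3 ratios, the Chd5 value and the other remodellers of the closing section were added after the values were seen. Python 3.11.15, pandas 2.3.3 and scipy 1.17.1 were used.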

Additional observations from a re-analysis of the deposited data

Results flagged for a closer look

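Smarcc2 ran opposite ways in KO against WT on the 2 days, each beyond counting error. It was higher in KO at day 0, with a log2 ratio of 0.44, and lower at day 5, with -0.49, a difference of -0.94. The day 0 ratio rests on 12.4 RPKM against 8.84 and the day 5 ratio on 15.8 FPKM against 22.6. With 1 library per group the difference was not tested. The rule asked for opposite signs with log2 ratios of 0.2 or more in size on both days and for counting intervals of the read shares that leave out 1. No other member met it in either perturbed line. Smarca2 in shMef2c had opposite signs too, 0.32 at day 0 and -0.26 at day 5, but its day 5 interval of 0.934 to 1.19 holds 1.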

How the results depend on the processing

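With 1 library per group no library could be left out. The days were compared within each line, which gives 1 pair of libraries per line, and no paired test over the lines was run. The 4 lines differ in genotype or hairpin and were not taken as replicates of a day. Of 84 alternative counts of called members, 72 were within 1.5 times the reported count or equal to it. The others follow. At a limit of 1.5-fold, the members called at day 5 were 2 in KO against WT (Smarcd3 and Phf10) and 1 in shMef2c against shCtrl (Smarcc2). At day 0 they were 2 in KO against WT (Actl6a and Phf10) and 1 in shCtrl against WT (Phf10). Between the days they were 4 in WT, 4 in KO, 5 in shCtrl and 4 in shMef2c. With a mean of 5 or more, the call of Smarca2 between the days was lost in WT (1 member left), KO (1 left) and shMef2c (0 left), because its mean was under 5. With shCtrl as the control, 0 members were called in KO at day 0. Of 53 member ratios of 0.2 or more in size, 51 kept their sign under every scaling and pseudocount tried. The 2 exceptions were the day 5 ratios of Smarca2, which went from -0.32 to as high as 0.06 in KO and from -0.26 to as high as 0.16 in shMef2c, on counts not divided by length. Of 64 paralogue shares recomputed from reads not divided by length, 17 stayed within their intervals and 47 moved. Smarcc2 at day 5 was then 28.6% in WT and 31.4% in shCtrl against 18.5% in KO and 18.2% in shMef2c. TPM shifted the median of all features between the days by -0.20 to -0.37 before centring. Counts over all features were lowest with a mean of 5 or more and highest with 1.5-fold. They went from 938 to 502 and 2566 for KO at day 5, from 1208 to 623 and 3178 for shMef2c, and from 128 to 57 and 676 for the controls. At day 0 they went from 352 to 204 and 1560, from 28 to 7 and 318, and from 151 to 83 and 816. Between the days they went from 3598 to 2394 and 6280 in WT, 2387 to 1429 and 4895 in KO, 3725 to 2446 and 6494 in shCtrl, and 2288 to 1409 and 4836 in shMef2c. Depth limits Actl6b most: with 24 reads in each library, KO over WT had an interval of 0.551 to 1.86. With the other control, the counts were 1327 and 926 at day 5 and 216 and 314 at day 0 for KO and shMef2c. A pseudocount of 0.1 and TPM gave 1459 and 1259 for KO, 1810 and 1621 for shMef2c and 330 and 218 for the controls at day 5. At day 0 they gave 654 and 583, 93 and 80, and 306 and 264.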

Other observations

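Among the ATPase genes of other remodellers, a few were called between the days in several lines. Smarca1 (SNF2L), an ISWI ATPase known from neurons, was called higher in all 4. It stood at 1.98 to 3.07 RPKM at day 0 and at 9.09 FPKM in WT, 5.58 in KO, 13.3 in shCtrl and 11.6 in shMef2c at day 5. Chd3 was also called higher in all 4 lines, with log2 ratios of 1.62 in WT, 1.45 in KO, 1.87 in shCtrl and 1.31 in shMef2c. Chd7, a CHD remodeller, was called higher in KO and shCtrl, with log2 ratios of 1.13 and 1.00 after 4.42 and 6.40 RPKM, and stood at 13.3 FPKM in WT and 10.7 in shMef2c after 9.60 and 7.03 RPKM. Hells, a remodeller of dividing cells, was called lower in the controls only, at 59.7 FPKM in WT and 59.4 in shCtrl after 158 and 139 RPKM. It stood at 88.2 in KO and 71.0 in shMef2c, and the difference between lines was not tested. Ino80 followed the same calls, at 6.43 FPKM in WT and 5.80 in shCtrl after 14.4 and 14.5 RPKM. Atrx was called lower in WT only, at 21.5 FPKM after 51.1 RPKM. Of the 16 remodellers that passed the filter, 5 were called in WT, 3 in KO, 5 in shCtrl and 2 in shMef2c. Beside the shares of all features (30.0%, 19.9%, 30.6% and 18.9%) these counts do not stand out, and the calls are given as values of single genes.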
